A study of Mus musculus with 4 samples.

Results

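Lysosomal proteases, hydrolases and membrane proteins were followed as a fixed list of 32 genes in tumour cells sorted by a TGF-beta reporter. The members were taken by gene name and made up 32 of the 31729 genes with a transcript in the files. No measured value was a criterion, but members and other lists were chosen with earlier results of these data known. All 32 reached at least 1 FPKM (sequenced fragments divided by transcript length and by depth, the unit of the files) in at least 2 libraries and so were among the 11973 genes tested. The list held 8 cysteine cathepsins and legumain, 4 aspartic and serine proteases, 8 glycosidases, 6 genes of sphingolipid and other lipid breakdown (progranulin included), 5 membrane proteins and the transcription factor Tfeb.

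The cells came from primary skin squamous cell carcinomas (SCC), labelled as derived from the epidermis, of mice labelled C57BL/6 X FBV. Every library carried TetO-Hras together with LV-rtTA3-TGF-beta reporter as its genotype, that is an inducible Hras oncogene, its transactivator rtTA3 and the reporter, so no group lacked the oncogene. Neither the promoter behind rtTA3 nor any treatment or age is stated in the labels. SCC stem cells were sorted on integrin alpha6 and CD44 after lineage-positive cells had been removed, and were then divided by mCherry fluorescence into a reporter negative group (TGF-beta signalling labelled absent) and a reporter positive group (labelled present). Each group had 2 libraries, 1 from experiment 1 and 1 from experiment 2. Separate animals are not named for the experiments, and the tests therefore see only library-to-library spread, which may be technical. Differences are given as reporter positive minus reporter negative on the log2(FPKM + 1) scale, which understates the change of low genes. They were tested over all 11973 genes with limma and Benjamini-Hochberg adjustment at a threshold of 0.05.

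Lysosomes are acidic, membrane-bound compartments in which proteases, glycosidases and lipid hydrolases break down material delivered by endocytosis and autophagy. A proton pump, the V-ATPase, keeps them acidic, and heavily glycosylated proteins such as LAMP1 and LAMP2 line their membrane. TFEB and its relatives activate many lysosomal genes through an E-box-type promoter motif and are held in the cytoplasm when mTORC1 is active at the lysosomal surface. In epidermis, cathepsins also process proteins of keratinocyte differentiation.

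The TFEB motif was looked for in RefSeq promoter windows (build GRCm38.p6, 250 bases before to 50 bases after each start), with the letters CACGTG (the E-box) and TCACGTGA (the core of the longer motif of lysosomal genes, which contains the E-box). Both are their own reverse complement, so a search covers both strands. Windows were found for 28 members, and Ctsb, Ctsh, Asah1 and Npc1 had none in the table. The E-box lay in a window of 10 of the 28 members (35.7%), against 8.09% of the 27025 genes with a window, and the longer core in 4 of 28 (14.3%), against 1.12%. A match describes letters only, not binding. The 6 stretches printed here lie wholly before the start. Those of Ctsd, Gla and Mcoln1 hold the longer core and that of Lamp1 the most E-boxes of the list, while Ctsf and Gaa are members whose fall passed the test once the experiment was a term of the fit. Capitals mark the motif, in its longer form where that is present.

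Ctsd, chr7:142387893-142387952, minus strand: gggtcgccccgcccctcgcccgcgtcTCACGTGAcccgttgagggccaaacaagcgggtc

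Gla, chrX:134601167-134601255, minus strand: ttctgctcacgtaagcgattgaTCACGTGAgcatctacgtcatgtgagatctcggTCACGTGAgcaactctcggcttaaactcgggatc

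Mcoln1, chr8:3500421-3500506, plus strand: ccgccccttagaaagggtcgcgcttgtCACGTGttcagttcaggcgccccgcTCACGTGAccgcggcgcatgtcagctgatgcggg

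Lamp1, chr8:13159073-13159160, plus strand: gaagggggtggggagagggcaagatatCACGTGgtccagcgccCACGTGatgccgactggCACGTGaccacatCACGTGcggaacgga

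Ctsf, chr19:4855059-4855118, plus strand: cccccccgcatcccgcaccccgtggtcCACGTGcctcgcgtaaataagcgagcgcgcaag

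Gaa, chr11:119267796-119267855, plus strand: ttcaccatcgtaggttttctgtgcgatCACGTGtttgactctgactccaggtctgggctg

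Lamp1 carried the E-box 4 times, 61 to 15 bases before its start, and Gla carried the longer core in both of its matches, 227 and 194 bases before its start. The expression differences of the 10 members with an E-box had a median of -0.42 on the log2 scale (range -1.28 to 0.47, 8 of 10 below 0). The 18 members with a window and no E-box had a median of -0.37 (range -3.13 to 0.68, 12 of 18 below 0). These are descriptions without a test. The members that passed the test without an experiment term included Scpep1 and Grn, whose windows held no E-box, and Lgmn, whose only match lay at the downstream of its 2 starts.

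The libraries held 3.14 to 3.75 gigabases of aligned sequence. Of the epithelial markers measured (6 of 8; Krt5 and Krt14 had no value), all reached 1 FPKM in at least 2 libraries, and their summed FPKM was 2165 and 2187 in the reporter negative libraries and 3169 and 3227 in the reporter positive ones. Perp, a desmosomal gene, carried most of that sum, and the single markers were divided, with 3 of 6 below 0 and a median difference of -0.25. None passed without the experiment as a block. With it Itga6 (-0.93), Epcam (-0.80) and Trp63 (-0.64) passed lower and Perp (0.88) higher. Leukocytes carry high levels of several cathepsins. Their 15 markers summed to 39.95 and 56.6 FPKM in the negative and 23.0 and 49.6 FPKM in the positive libraries, 6 of the 15 passed the filter, and Ptprc, Adgre1, Csf1r and Itgam lay under 1 FPKM in every library. The sum was mostly Cd74, at 25.6 and 42.0 FPKM against 8.39 and 17.5 FPKM (-1.36, adjusted p = 0.13, and 0.015 with the block). The other 5 leukocyte markers tested (Cd14, Lyz2, C1qa, Tyrobp and Fcer1g) had differences above 0, from 0.02 to 0.81, none of which passed. The median of the 6 was 0.21, with -0.42 within experiment 1 and 0.62 within experiment 2. In 3 of the 6 the experiments differed in direction. The 9 fibroblast markers summed to 28.8 and 44.7 FPKM against 13.5 and 29.3 FPKM, the 6 endothelial markers to 5.51 and 12.8 FPKM against 3.01 and 3.38 FPKM, and the 6 melanocyte markers to 1.08 and 3.51 FPKM against 0.252 and 0.902 FPKM. The filter was passed by 6 fibroblast, 2 endothelial and 0 melanocyte markers, and 5 of the 6 melanocyte markers lay under 1 FPKM in every library. The summed fibroblast, endothelial and melanocyte levels were lower in the positive than in the negative library of each experiment, as many members were. So was the leukocyte sum, through Cd74. The part of these cell types in the results was not tested. In bulk libraries, fewer cells of a type and less RNA per cell cannot be told apart.

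The lysosomal list showed 3 genes that fell in reporter positive cells and none that rose. Scpep1 (a serine carboxypeptidase), Lgmn (legumain, the asparaginyl endopeptidase that processes cathepsins) and Grn (progranulin, which is cut into granulins in the lysosome) passed the test, with 29 members that did not. That is 9.4% of the members, against 2.71% of all genes tested called lower and 2.68% called higher. At an unadjusted p under 0.05 (limma), 12 members lay lower and 2 higher. That is 14 of 32, against 3094 of the 11973 genes tested, in either direction. With the experiment as a block, 6 members passed, all lower (18.8%, against 7.43% of all genes called lower and 4.45% called higher). The additional ones were Ctsf, Gaa and Psap. The summed FPKM of the 32 members was 2372 and 2431 in the negative libraries and 1879 and 1844 in the positive ones.

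Over the whole list, the share of members with a lower level was close to that of all genes. Of the 32 members 22 had a difference below 0 (68.8%), against 68.9% of all genes tested. The median difference was -0.37, against -0.18 for all genes. When libraries were scaled by median-of-ratios factors, the median of all genes moved to 0.03 and that of the members to -0.17, so the members lay 0.19 to 0.20 below the middle of all genes by either scale. After that scaling 21 of 32 members stayed below 0 (65.6%), against 46.5% of all genes. In 21 members (65.6%) both positive libraries lay below both negative ones, which was so for 42.7% of all genes. In 3 members (9.4%) both lay above, against 15.2% of all genes, and in 8 the groups overlapped. The level was lower in both experiments in 21 members (65.6%, against 54.3% of all genes). It was higher in both in 6 members and of opposite direction in 5. Of the 11973 genes tested, 2476 were higher in both and 2946 of opposite direction.

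**Figure D1:**
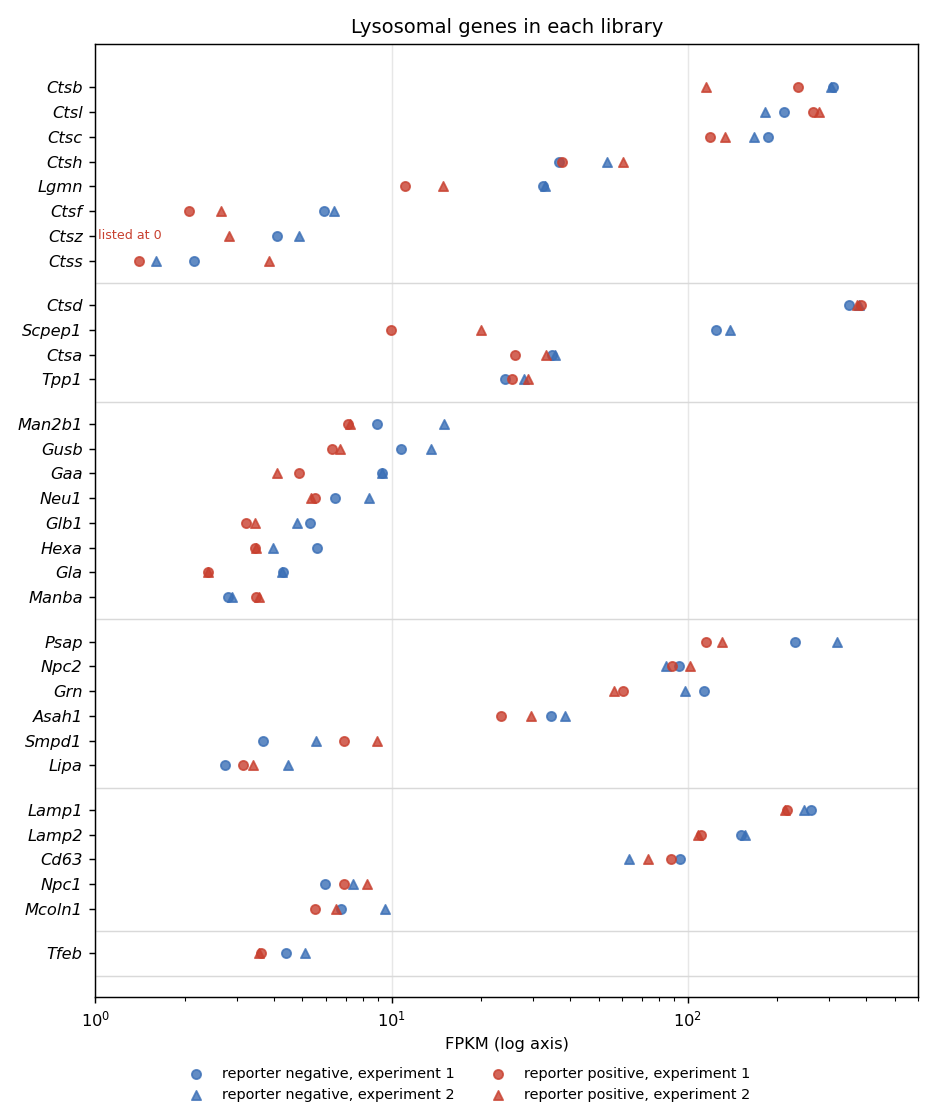
FPKM of each of the 32 lysosomal genes in each of the 4 libraries (horizontal log axis), in blocks by role from cysteine proteases at the top to Tfeb at the bottom. Colour gives the reporter state and symbol shape the experiment. Both positive libraries lie to the left of both negative ones in 21 genes, most widely for Scpep1, and Ctsz is listed at 0 in 1 positive library.

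Among the cysteine proteases, Lgmn fell, and with the experiment block Ctsf fell as well. Lgmn (ENSMUSG00000021190, chromosome 12, 103632294 to 103678023 in mm9) had 32.5 FPKM (experiment 1) and 32.98 FPKM (experiment 2) without reporter signal and 11.1 and 14.9 FPKM with it. The groups were far apart and the negative libraries nearly equal. Its difference was -1.28 ± 0.19 (SE, n = 2 against 2; adjusted p = 0.035), a 2.52-fold lower mean FPKM.

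Lgmn was measured wholly on reference transcripts in all 4 libraries, and both of its main transcripts lay lower in positive cells. Lgmn-201 stood at 13.2 and 17.2 FPKM in the negative and 7.001 and 6.91 FPKM in the positive libraries. Lgmn-202 stood at 19.4 and 15.8 FPKM against 4.08 and 8.02 FPKM, so that Lgmn-202 was the larger form by mean in negative cells and Lgmn-201 in positive cells. Within each group, however, the larger form differed between the experiments, and the shift was not tested.

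Ctsf, a widely expressed papain-like cathepsin, stood at 5.91 and 6.41 FPKM in the negative libraries and at 2.07 and 2.65 FPKM in the positive ones, again without overlap. Its difference was -1.10 ± 0.20 (SE), with an adjusted p of 0.052 without and 0.033 with the experiment block.

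Ctsb, a cysteine protease with endo- and exopeptidase activity, had the highest mean of this group. It stood at 309.8 and 303.5 FPKM in the negative libraries and at 234.4 and 114.8 FPKM in the positive ones, so the positive libraries lay lower but differed strongly between themselves. The share of its FPKM carried by transcripts assembled from the reads, in place of reference transcripts, was 91.3% and 65.0% in the negative and 84.7% and 0% in the positive libraries. FPKM divides by the length of the model that received the reads. With the model length taken out (FPM, which is FPKM times exonic length in kilobases), Ctsb stood at 642.7 and 730.3 in the negative and 515.2 and 543.7 in the positive libraries, and its difference shrank from -0.90 ± 0.35 (SE; adjusted p = 0.20) to -0.37 (adjusted p = 0.17). On reference transcripts alone it was 0.25, of the opposite sign.

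The other cysteine proteases did not pass. Ctsc, the dipeptidyl peptidase that activates granule proteases, stood at 185.9 and 166.6 FPKM against 118.3 and 132.9 FPKM (difference -0.49, adjusted p = 0.13). Ctsl, an endopeptidase known in epidermis and hair follicle, had both positive libraries higher, with 264.1 and 276.9 FPKM against 210.3 and 181.8 FPKM. Its difference of 0.47 had a 95% interval of 0.08 to 0.85, an adjusted p of 0.14, and was 0.31 in FPM. Ctsl and Ctsc were singled out after their values were seen. Ctsh, an aminopeptidase, and Ctss, which trims the class II invariant chain in antigen-presenting cells, overlapped between groups (0.10 and 0.26). Ctsz, a carboxypeptidase, was listed at 0 in the positive library of experiment 1, which can be a failed estimate, beside 2.83 FPKM in the positive library of experiment 2 and 4.09 and 4.88 FPKM in the negative libraries, so its fold is not given. Ctsz was singled out for that 0.

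Among the aspartic and serine proteases, Scpep1 fell and the others did not pass. Scpep1 (ENSMUSG00000000278, chromosome 11, 88785334 to 88816779 in mm9) had 124.4 and 138.8 FPKM in the negative libraries and 9.95 and 19.98 FPKM in the positive ones. The negative libraries lay close together and far above the positive ones, which differed more from each other in proportion. The difference was -3.13 ± 0.33 (SE; adjusted p = 0.018), an 8.79-fold lower mean, and it had the widest distance from 0 among the 32 members. All of its FPKM lay on reference transcripts. An antisense gene, Scpep1os, covers 4.58% of its exonic bases, and the sources do not say whether the counting used strand.

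Ctsd, the main aspartic protease of lysosomes, had the highest mean of all members and showed nearly equal levels. It stood at 348.4 and 377.8 FPKM in the negative libraries and 384.5 and 373.5 FPKM in the positive ones. The groups overlapped, and the difference of 0.06 had a 95% interval of -0.31 to 0.44. Another gene model on the same strand, Gm49369, shares 28.4% of its exonic bases, so its reads could be divided between models. Ctsa, a serine carboxypeptidase that also protects neuraminidase and beta-galactosidase, had a difference of -0.25. On reference transcripts alone it was 0.93, of the opposite sign, where 59.5% and 55.5% of its FPKM in the negative libraries drops out. Tpp1, a tripeptidyl peptidase, had a difference of 0.06, and of -0.16 on reference transcripts.

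**Figure D2:**
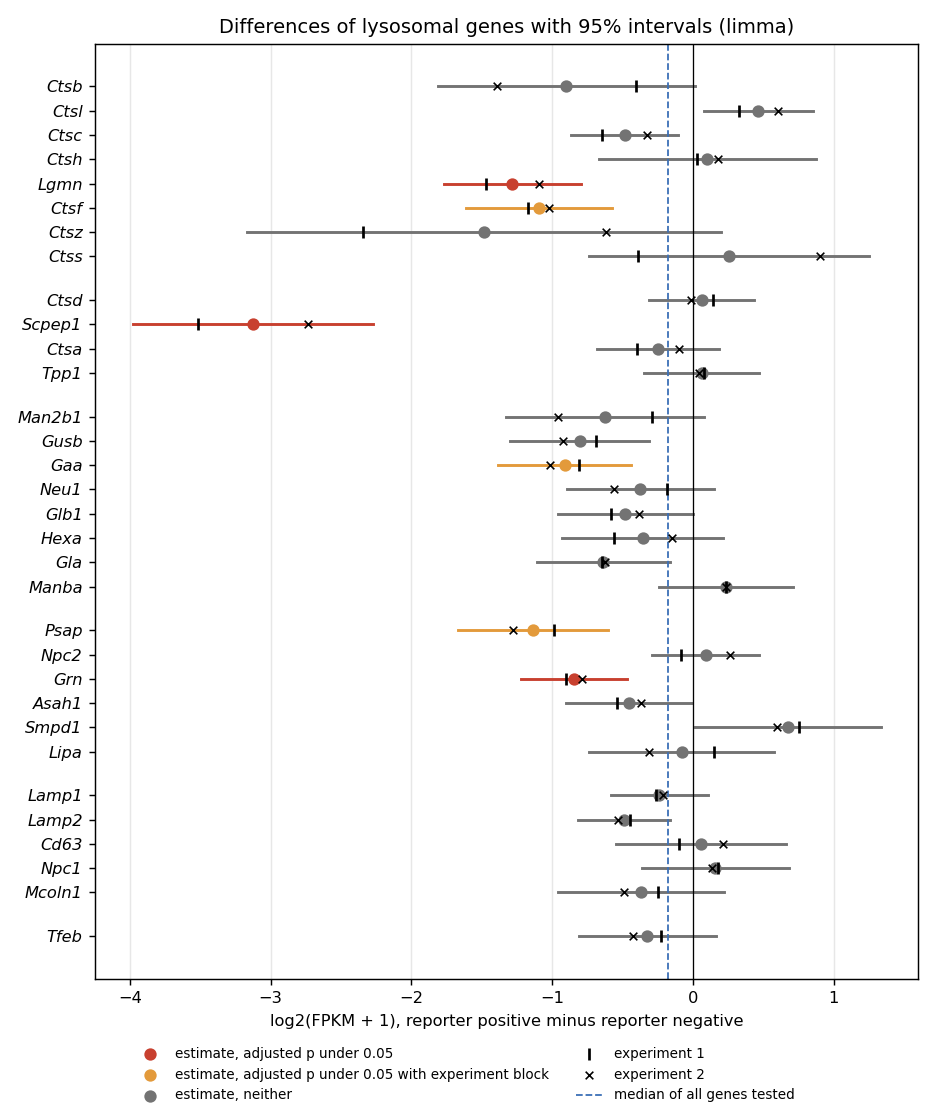
Difference of each lysosomal gene on the log2(FPKM + 1) scale (horizontal axis, reporter positive minus negative) with its 95% interval from limma, and the difference within experiment 1 (bar) and experiment 2 (cross). Red marks the 3 genes with an adjusted p under 0.05, orange the 3 that pass only with the experiment block; the dashed line at -0.18 is the median of all genes tested.

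The glycosidases, which remove sugars from glycoproteins, glycolipids and glycogen, lay lower in 7 of 8 cases, though none passed the test (limma; 4 had an unadjusted p under 0.05, all lower). Their median difference was -0.55, and -0.35 after median-of-ratios scaling, and all 7 had both positive libraries below both negative ones. Of all genes, 68.9% had a difference below 0 and 42.7% such an order of the libraries. An unadjusted p under 0.05 was found for 3094 of the 11973 genes tested, in either direction. The summed level was 53.4 and 62.2 FPKM in the negative libraries and 36.4 and 36.3 FPKM in the positive ones. Gaa, the acid alpha-glucosidase that digests glycogen, stood at 9.29 and 9.30 FPKM in the negative libraries and 4.89 and 4.09 FPKM in the positive ones. The negative libraries were almost identical and the difference was -0.91 ± 0.18 (SE), with an adjusted p of 0.061 without and 0.043 with the block.

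Man2b1, an alpha-mannosidase, was the highest of the glycosidases by mean level, at 8.95 and 15.05 FPKM in the negative and 7.12 and 7.26 FPKM in the positive libraries. The negative libraries differed more than the positive ones, and up to 79.8% of its FPKM lay on assembled transcripts. In FPM the values were 38.7 and 54.5 against 20.3 and 24.4, and the difference went from -0.63 (adjusted p = 0.23) to -1.01 (adjusted p = 0.085, and 0.027 with the block). Gusb, the beta-glucuronidase, had a difference of -0.80 (adjusted p = 0.085, and 0.051 with the block). With the block and FPM together it reached 0.040. Under that setting 8 of the 32 members passed, all lower, against 1721 of 12696 genes called in either direction.

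Gla (alpha-galactosidase), Glb1 (beta-galactosidase), Neu1 (neuraminidase) and Hexa (a beta-hexosaminidase subunit) had differences of -0.64, -0.48, -0.37 and -0.36. Manba, the beta-mannosidase, was the exception and was singled out for it, with 3.48 and 3.58 FPKM in the positive and 2.80 and 2.89 FPKM in the negative libraries (0.24, adjusted p = 0.47).

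Among the genes of lipid breakdown, Grn fell, and with the block Psap fell. Grn (ENSMUSG00000034708, chromosome 11, 102291629 to 102298362 in mm9) had 113.6 and 97.7 FPKM in the negative libraries and 60.2 and 56.2 FPKM in the positive ones. The groups were apart, with positive libraries nearly equal. The difference was -0.85 ± 0.14 (SE; adjusted p = 0.047), a 1.82-fold lower mean. Its adjusted p was the largest of the 3 calls. With median-of-ratios scaling it was -0.61 (adjusted p = 0.14), and on reference transcripts alone -0.51 (adjusted p = 0.32), where 38.0% of its FPKM in the negative library of experiment 1 drops out. Exons of Fam171a2 on the opposite strand cover 1.96% of its exonic bases.

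Psap encodes prosaposin, the precursor of the saposins that present sphingolipids to their hydrolases, and the progranulin protein is known to travel with it. Psap stood at 229.7 and 318.6 FPKM in the negative libraries and 115.2 and 130.8 FPKM in the positive ones. Each positive library lay below its partner, while the negative libraries differed by more than the positive ones. The difference was -1.13 ± 0.21 (SE), a 2.23-fold lower mean, with an adjusted p of 0.051 without and 0.014 with the block. It was the highest of its group by mean level, at 274.2 ± 62.9 FPKM (SD, n = 2) in negative and 123.0 ± 11.0 FPKM (SD, n = 2) in positive cells.

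The remaining lipid genes did not move together. Asah1, the acid ceramidase, had a difference of -0.46, while Smpd1, the acid sphingomyelinase, which makes the ceramide that Asah1 cleaves, stood higher in both positive libraries, at 6.90 and 8.93 FPKM against 3.68 and 5.57 FPKM. The Smpd1 difference of 0.68 had a 95% interval of 0.02 to 1.34 and an adjusted p of 0.19, and Smpd1 was singled out after its values were seen. Lipa, the acid lipase for cholesteryl esters, and Npc2, which hands cholesterol to Npc1, overlapped between groups (-0.08 and 0.09).

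None of the 5 membrane proteins passed the test (limma; 1 had an unadjusted p under 0.05, Lamp2). Such a p was found for 3094 of the 11973 genes tested. Lamp1, the most abundant of them, stood at 259.8 and 247.1 FPKM in the negative libraries and 216.3 and 212.7 FPKM in the positive ones. The groups did not overlap, but the difference was only -0.24 (95% interval -0.59 to 0.11, adjusted p = 0.33), close to the median of all genes. On reference transcripts alone it was 0.54, of the opposite sign, where 66.3% of the FPKM in the negative library of experiment 1 drops out. Lamp2 stood at 151.3 and 156.4 FPKM against 110.8 and 107.9 FPKM (difference -0.49 ± 0.13 SE, adjusted p = 0.098, and 0.054 with the block), and was singled out after its values were seen.

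The 2 main Lamp2 transcripts were followed because their proteins differ in the membrane-spanning end. Lamp2-201 stood at 69.0 and 57.1 FPKM in the negative and 48.8 and 40.2 FPKM in the positive libraries, without overlap. Lamp2-202 stood at 42.0 and 99.3 FPKM against 41.6 and 67.7 FPKM. In experiment 1 an assembled model that ends at the 3′ end of Lamp2-202 held a further 40.3 FPKM in the negative and 20.4 FPKM in the positive library, and experiment 2 had no such model, so the level of Lamp2-202 cannot be compared between experiments. Cd63, a tetraspanin of late endosomes, and Npc1, the cholesterol exporter, overlapped between groups (0.06 and 0.16), and Mcoln1, a calcium channel that TFEB activates and that in turn can activate TFEB, had a difference of -0.37 (adjusted p = 0.37).

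Tfeb itself did not pass. It stood at 4.41 and 5.12 FPKM in the negative libraries and at 3.62 and 3.57 FPKM in the positive ones. The groups did not overlap, and the difference was -0.32 ± 0.19 (SE; adjusted p = 0.34). The level of its RNA does not report whether the protein is in the nucleus.

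**Figure D3:**
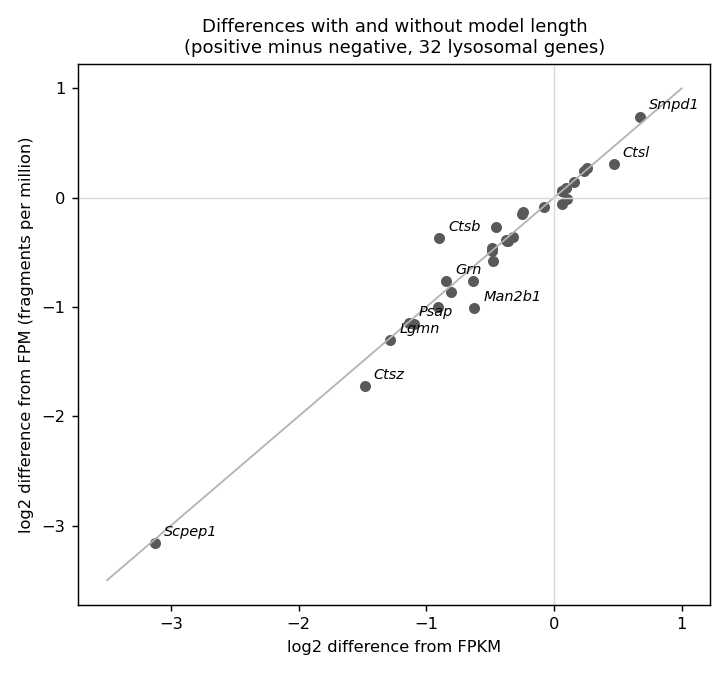
Difference of the 32 lysosomal genes computed from FPKM (horizontal axis) and from FPM (fragments scaled to library depth only), which leaves out the length of the transcript model (vertical axis), both on a log2 scale, with the line of equal values. For 23 genes, Scpep1 (-3.13 and -3.16) and Lgmn (-1.28 and -1.30) among them, the values lie within 0.1 of each other; of the 9 beyond that, Ctsb (-0.90 and -0.37) and Man2b1 (-0.63 and -1.01) lie farthest off the line.

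Further genes of the lysosome were measured in the same libraries. Of the 11973 genes tested, 3094 had an unadjusted p under 0.05 (limma), in either direction. Of 22 further hydrolases and cofactors tested, 0 passed in either direction (limma; 7 had an unadjusted p under 0.05, all lower), with a median of -0.34. The smallest p belonged to Aga, the aspartylglucosaminidase, at 5.599 and 5.34 FPKM in the negative and 3.34 and 3.32 FPKM in the positive libraries (-0.58, adjusted p = 0.13). Of 19 further membrane and sorting genes, 0 passed (limma; 3 had an unadjusted p under 0.05, all higher), with a median of -0.13. These 3 were Sort1, a sorting receptor for lysosomal cargo (0.80, adjusted p = 0.087), Scarb2, the carrier of glucocerebrosidase (0.68, adjusted p = 0.15), and Cd68 (0.56, adjusted p = 0.16).

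The subunits of the V-ATPase, the proton pump of the same organelle, included genes that rose. Of 18 subunits tested, 3 rose and 0 fell (8 had an unadjusted p under 0.05, all higher), 14 had a difference above 0, and 11 had both positive libraries above both negative ones. Of all genes, 2.68% were called higher, 31.1% had a difference above 0 and 15.2% had both positive libraries above. An unadjusted p under 0.05 (limma) was found for 3094 of the 11973 genes tested, in either direction. The V-ATPase median was 0.31, and 0.55 after median-of-ratios scaling. Atp6v1b2, a subunit of the catalytic head, stood at 46.5 and 47.7 FPKM in the negative and 110.2 and 123.9 FPKM in the positive libraries (1.29 ± 0.14 SE, adjusted p = 0.018). Atp6v0b, of the membrane ring, stood at 77.6 and 75.6 FPKM against 135.7 and 132.4 FPKM (0.80 ± 0.13 SE, adjusted p = 0.040).

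Atp6v0a4, a membrane subunit best known from acid-secreting kidney cells, stood at 2.75 and 1.86 FPKM against 9.78 and 12.1 FPKM (1.86 ± 0.23 SE, adjusted p = 0.027). In all 3 the groups lay far apart. With the block 5 subunits passed, all higher, Atp6v1d among them (0.58, adjusted p = 0.080 without and 0.044 with the block). Of all genes, 4.45% were called higher with the block. The difference between the V-ATPase list and the 32 members was not tested. V-ATPase also works outside lysosomes.

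**Figure D4:**
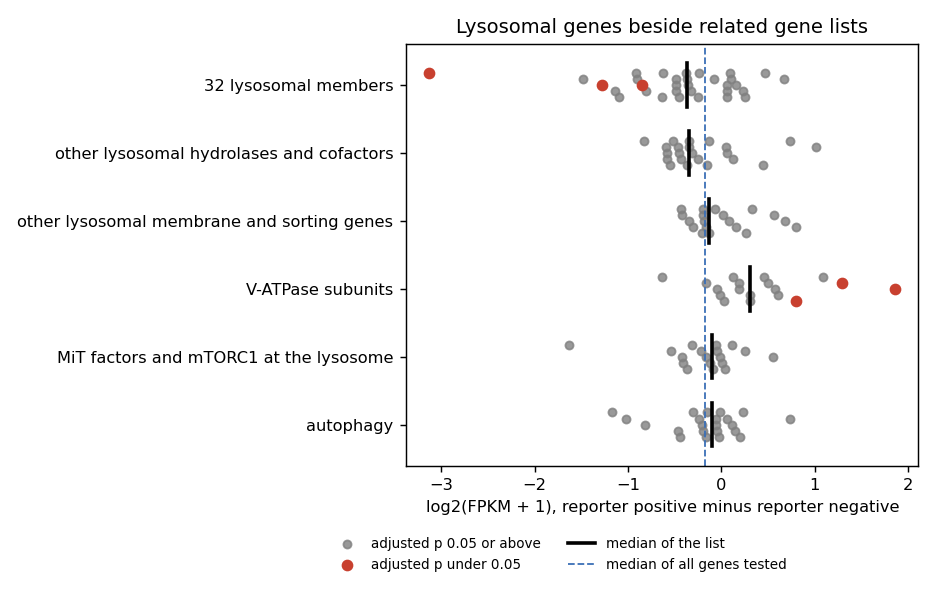
Difference of each tested gene on the log2(FPKM + 1) scale (horizontal axis, reporter positive minus negative) in the 32 lysosomal members and 5 related lists; red points have an adjusted p under 0.05, black bars are list medians and the dashed line is the median of all genes tested. The V-ATPase median lies at 0.31 and that of the members at -0.37, and the only red points are 3 members below 0 and 3 V-ATPase subunits above it.

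Among cystatins, the protein inhibitors of cysteine cathepsins, calls went in both directions. Of all genes, 2.71% were called lower and 2.68% higher, and 7.43% and 4.45% with the block. The summed FPKM of the 7 cystatins overlapped between groups, at 10220 and 7860 in the negative and 7962 and 9295 in the positive libraries. Of 5 tested, Cstb (cystatin B, an intracellular inhibitor) rose, from 407.5 and 327.3 FPKM in the negative to 754.9 and 752.0 FPKM in the positive libraries (1.04 ± 0.18 SE, adjusted p = 0.047). The positive libraries were nearly equal and both above the negative ones. Stfa1, a stefin with close copies among which reads can be divided, was called lower. It stood at 2334 and 1900 FPKM in the negative libraries and was listed at 0 in both positive ones, which can be a failed estimate. With the block Cst6, a secreted epidermal cystatin, also passed, at 6.41 and 3.29 FPKM in the negative and 26.1 and 107.7 FPKM in the positive libraries (adjusted p = 0.046). Cst3 (cystatin C) passed lower with the block, at 486.5 and 335.5 FPKM in the negative and 256.3 and 229.5 FPKM in the positive libraries (adjusted p = 0.038).

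No regulator or autophagy gene passed without the block. With the block, 7.43% of all genes were called lower and 4.45% higher. Without it, 3094 of the 11973 genes tested had an unadjusted p under 0.05 (limma), in either direction. Of 18 tested genes of the TFEB family and of mTORC1 at the lysosome, 0 passed (limma; 1 higher and 1 lower at an unadjusted p under 0.05), with a median of -0.10. With the block Rheb, the GTPase that activates mTORC1, passed (-0.54, adjusted p = 0.048), at 95.8 and 92.4 FPKM in the negative and 67.5 and 61.8 FPKM in the positive libraries. Of 22 autophagy genes, 0 passed (limma; 1 higher and 4 lower at an unadjusted p under 0.05), with a median of -0.10. With the block 3 passed, all lower: Map1lc3a (-1.18, adjusted p = 0.015), Gabarapl1 (-0.82, adjusted p = 0.044) and Rb1cc1 (-1.02, adjusted p = 0.038), which encode 2 autophagosome membrane proteins and a scaffold of the initiating kinase.

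With 2 libraries a group, no exact permutation test can go below 0.333, so the calls rest on the spread limma shares across genes. Without the negative library of experiment 1 or that of experiment 2, no member passed (Scpep1 had an adjusted p of 0.083 and 0.11), and without either positive library only Scpep1 did (0.039 and 0.027).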

How the data were processed

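TopHat alignment and Cufflinks transcript estimates on mm9 were made by the authors, per the submitters' processing notes, which name no version or annotation release. The 4 deposited files hold other values than gene counts: an FPKM per transcript, reference or assembled, per the file headers. Read numbers are not given; aligned bases came from coverage over FPKM.

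Here, FPKM was summed per gene over transcripts of at least 200 exonic bases (shorter ones carried 95.1% to 98.9% of FPKM). Reference transcripts were named by transcript ID through GENCODE M21, or by the Ensembl gene ID of the files. Assembled transcripts and the remaining reference ones were named by at least 50% exon overlap (12.0% to 13.6% of the FPKM left). The sums were made with Python 3.11.15 and pandas 2.3.3. The filter was 1 FPKM or more in at least 2 libraries. The test was that of limma 3.58.1 under R 4.3.3 (eBayes with trend, two-sided) on log2(FPKM + 1), checked on simulated data. Alternatives were median-of-ratios scaling, another pseudocount (0.1), filters, the experiment block, zeros left out and leaving out libraries. A further alternative used reference transcripts only, and kept just those named by transcript ID. FPM (FPKM times length) was an alternative added after seeing the data. The titles give the experiment number. Deviations from group means correlated at 0.17 between the libraries of an experiment. With 2 libraries a group, this value is necessarily the same for both experiments. Members and lists were chosen with earlier results of these data known. Library values are given for members passing either fit and the highest of each role, with others marked as singled out; up to 4 genes of other lists, by smallest p, are named. Gene coordinates are mm9, promoters GRCm38.p6. Exons of 8 members overlap another gene's, on the opposite strand for 6. Galns and Map1lc3b had no value.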

Additional observations from a re-analysis of the deposited data

How the results depend on the processing

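The 3 calls (Scpep1, Lgmn, Grn) kept their direction in all settings tried. Members called lower numbered 6 with the replicate block (experiment), 6 with genes listed at 0 left out and 8 with FPM and the block. They numbered 3 with FPM alone and 4 of 24 at 5 FPKM or more (644 of 8775 genes were called there). With a pseudocount of 0.1 (499 of 11973) and with median-of-ratios scaling (684 of 11985) they numbered 2. Grn was lost in both (limma, adjusted p = 0.055 and 0.14). The number was 0 both without a filter on low values (4 of 20040 genes were called there) and on reference transcripts only (75 of 10683). Leaving out 1 library gave 0 to 1. No setting called a member higher. The members' median was -0.43 with a pseudocount of 0.1, -0.42 at 5 FPKM or more, -0.17 with median-of-ratios scaling, -0.32 on reference transcripts, and -0.42 to -0.28 leaving out 1 library. All genes called numbered 646, against 1422 with the block, 1262 with zeros left out, 1721 with FPM and the block, and 3 to 191 with 1 library left out, where the lone library is assumed to vary like the others. Of 407 recomputed member values 20 reversed, in 11 members, none of them called. On reference transcripts named by transcript ID these were Ctsb 0.25, Ctsa 0.93, Lamp1 0.54, Ctsd -0.039, Tpp1 -0.16 and Npc1 -0.023. The Ctsd value leaves out a reference transcript named by overlap, which carried most of its FPKM. That transcript stood at 291.3 and 305.2 FPKM in the negative and 324.5 and 308.1 FPKM in the positive libraries. In FPM, with or without the block, the reversed values were Ctsh -0.016 and Tpp1 -0.058, and with scaling Lipa 0.11. Leaving out 1 library gave a range that crossed 0 for Ctsh (-0.23 to 0.44), Ctss (-0.25 to 0.77), Tpp1 (-0.043 to 0.17), Lipa (-0.35 to 0.20), Npc2 (-0.0065 to 0.19) and Cd63 (-0.22 to 0.34). The cause was not tested. The depth in reads is unknown, which limits members of a few FPKM most.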
